A study of Mus musculus with 7 samples.

Results

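The genes described here are 4 tissue inhibitors of metalloproteinases (Timp1 to Timp4) and 6 matrix metalloproteinases (Mmp2, Mmp14, Mmp15, Mmp16, Mmp17 and Mmp24), 10 of the 16593 genes named on the array, taken by their gene symbol in the platform annotation. Probes were listed for 9 of the 10 genes, 12 probes in all, and 11 of these were bright enough to be tested. No probe was listed under Mmp15, which is therefore not analysed here. RNA came from the hypothalamus of 13-week-old male mice with the label BGN knockout on a C57BL/6 background. The DHA group held 5 mice whose chow contained, for some 6 weeks, 0.5% flaxseed oil plus 1.2% DHA capsule oil, DHA being docosahexaenoic acid, an omega-3 fatty acid of brain membranes. The untreated group held 2 mice (replicates 1 and 3) without these oils, and the submitters state that they dropped a further untreated mouse as an outlier. Both groups carried the knockout of Bgn, the gene of the matrix proteoglycan biglycan, and no group was wild type or fed flaxseed oil alone, so neither the genotype nor DHA by itself was compared. The series text counts mice per group, but no label names the animal behind an array, and should any animal have given more than 1 array, the p-values would reflect only the spread between these arrays.

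Matrix metalloproteinases are zinc-dependent enzymes that cut collagens, proteoglycans and cell-surface proteins. Some are secreted, such as Mmp2, and others are held at the cell surface by a transmembrane segment (Mmp14, Mmp15, Mmp16 and Mmp24) or a lipid anchor (Mmp17). The Timp proteins are small secreted inhibitors that block the active site of these enzymes. Timp2 also takes part in the activation of the Mmp2 proenzyme by Mmp14 at the cell surface, and Timp3 binds the matrix and inhibits ADAM proteases as well.

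The unnormalised median signal was 174.5 to 189.5 in the DHA arrays and 167.4 and 173.2 in the untreated arrays, and the DHA arrays detected 14251 to 14534 probes, against 13970 and 13873 in the untreated arrays. Precision is limited by the small number of arrays. The single Bgn probe was detected on all 7 arrays, with log2 signals of 8.31, 8.26, 8.23, 8.03 and 8.23 in DHA replicates 1 to 5 and 8.71 and 8.40 in untreated replicates 1 and 3 (difference -0.34, SE 0.12, limma adjusted p 0.417). Since all mice carried the knockout and no source used here places the probe relative to the deletion, this does not check the genotype. Defining transcripts of the hypothalamus were present, with 14 of 16 listed genes tested and a mean log2 signal of 10.84 to 11.04 in the DHA arrays and 10.97 and 11.14 in the untreated arrays. The groups did not overlap for 2 of the 14, Tac2 and Nr5a1, both lower with DHA, against 9.06% of all tested probes. Nr5a1 was detected in 1 of 5 DHA and 2 of 2 untreated arrays. Some arrays also carried transcripts of neighbouring or other tissue. The mean over 4 tested liver genes was highest in DHA replicates 1 and 4 (9.49 and 8.83, against 6.97 and 6.43 in the untreated arrays), although albumin, Alb, was detected on no array. Of these genes, Ttr is also a choroid plexus marker, while Apoa1, Ahsg and Serpina1a were each highest in DHA replicates 1 and 4 too. The mean over 5 tested choroid plexus and ependyma genes, Ttr included, was likewise highest there (8.25 and 8.06, against 7.78 and 7.33 in the untreated arrays). Of these 5 genes, however, only Ttr was highest in DHA replicates 1 and 4 (11.59 and 10.82). Kl and Foxj1 were lower in DHA replicate 1 (6.87 and 5.88) than in any other DHA array. The mean over 4 tested pituitary genes was highest in DHA replicates 3 and 1 (7.90 and 6.87, against 4.68 and 5.22 in the untreated arrays). Cga and Tshb were highest in these arrays, but Gh and Prl were higher in DHA replicate 5 (5.97 and 6.25) than in DHA replicate 1 (5.62 and 4.79). The mean over 6 tested striatal neuron genes was 8.73 to 9.02 in the DHA arrays, against 9.81 in untreated replicate 1 and 8.82 in untreated replicate 3.

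The upstream sequences of 3 inhibitor genes are shown because Timp3 and Timp2 were the inhibitors whose diet groups did not overlap, while Timp4 differed least between diets. Each sequence holds the 250 bases before the annotated start of the gene, 5′ to 3′ on the strand of the gene, from RefSeq on GRCm38.p6. Timp3 lies on the plus strand (chr10:86300162-86300411), and Timp2 (chr11:118355412-118355661) and Timp4 (chr6:115252206-115252455) on the minus strand. Capitals mark matches to the GC box GGGCGG on either strand.
Timp3: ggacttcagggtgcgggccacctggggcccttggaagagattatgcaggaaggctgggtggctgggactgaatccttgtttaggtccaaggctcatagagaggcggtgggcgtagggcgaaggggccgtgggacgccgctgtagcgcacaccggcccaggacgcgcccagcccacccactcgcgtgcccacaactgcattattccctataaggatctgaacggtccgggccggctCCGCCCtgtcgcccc
Timp2: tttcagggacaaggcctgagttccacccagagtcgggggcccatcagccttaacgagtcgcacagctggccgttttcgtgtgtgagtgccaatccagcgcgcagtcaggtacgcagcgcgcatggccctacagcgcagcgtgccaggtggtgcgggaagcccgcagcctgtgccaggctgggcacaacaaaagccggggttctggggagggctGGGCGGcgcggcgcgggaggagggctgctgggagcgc
Timp4: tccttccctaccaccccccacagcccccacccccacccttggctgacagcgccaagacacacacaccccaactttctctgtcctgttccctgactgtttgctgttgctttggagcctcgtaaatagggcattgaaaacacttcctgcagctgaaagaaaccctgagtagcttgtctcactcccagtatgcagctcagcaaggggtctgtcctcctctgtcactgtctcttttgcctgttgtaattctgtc
The RefSeq table held an entry for 7 of the 10 genes (Timp1, Timp2, Timp3, Timp4, Mmp14, Mmp15 and Mmp24). GGGCGG, searched on both strands, was present in 6 of these 7, with 1 match each in Timp1, Timp2, Timp3 and Mmp15, 2 in Mmp14 and 3 in Mmp24, and with 0 in Timp4. Over all 32851 promoter windows of the same length, 32.7% held it. The TATA box TATAAA (both strands, 12.4% of all windows) and the AP-1 motif TGANTCA (6.75% of all windows) were present in 0 of the 7, so only GGGCGG is marked in the sequences shown. Timp4 alone among the 7 held none of the 3 motifs in its window. GC content ran from 53.6% in Timp4, 54.4% in Timp1 and 55.2% in Mmp14 to 79.2% in Mmp24, with 65.6% in Timp3 and 68% in Timp2.

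The diet groups were compared to ask which metalloproteinase and inhibitor transcripts differ in the hypothalamus of Bgn knockout mice fed the oils. Timp3 was the member with the most evidence of a difference, at 35.4% above the untreated mean on its brighter probe, and Timp2 and Mmp2 were also higher in every DHA array than in both untreated arrays. Timp4, Mmp14, Mmp16, Mmp17 and Mmp24 overlapped between diets, with differences between -0.10 and 0.07 log2, and Timp1 varied widely among the DHA arrays. No member passed the test across all probes. In limma, with Benjamini-Hochberg adjustment over 15284 probes, 0 of 11 member probes had an adjusted p under 0.05, as did 0% of all tested probes, and the lowest member value was 0.313. Without adjustment, 2 of 11 member probes had a p under 0.05, both of them Timp3 and higher with DHA, against a background of 10.3% of tested probes (5.18% higher and 5.08% lower with DHA). Taking the brightest probe of each gene, the groups did not overlap for 3 of 9 members, all higher with DHA, against 17% of tested probes (7.89% higher and 9.06% lower with DHA). The median difference over the 9 members was 0.07 log2, beside -0.014 over all tested probes. Differences are log2 values, DHA minus untreated, and since the tissue is bulk, fewer cells of a type and less RNA per cell cannot be told apart.

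**Figure D1:**
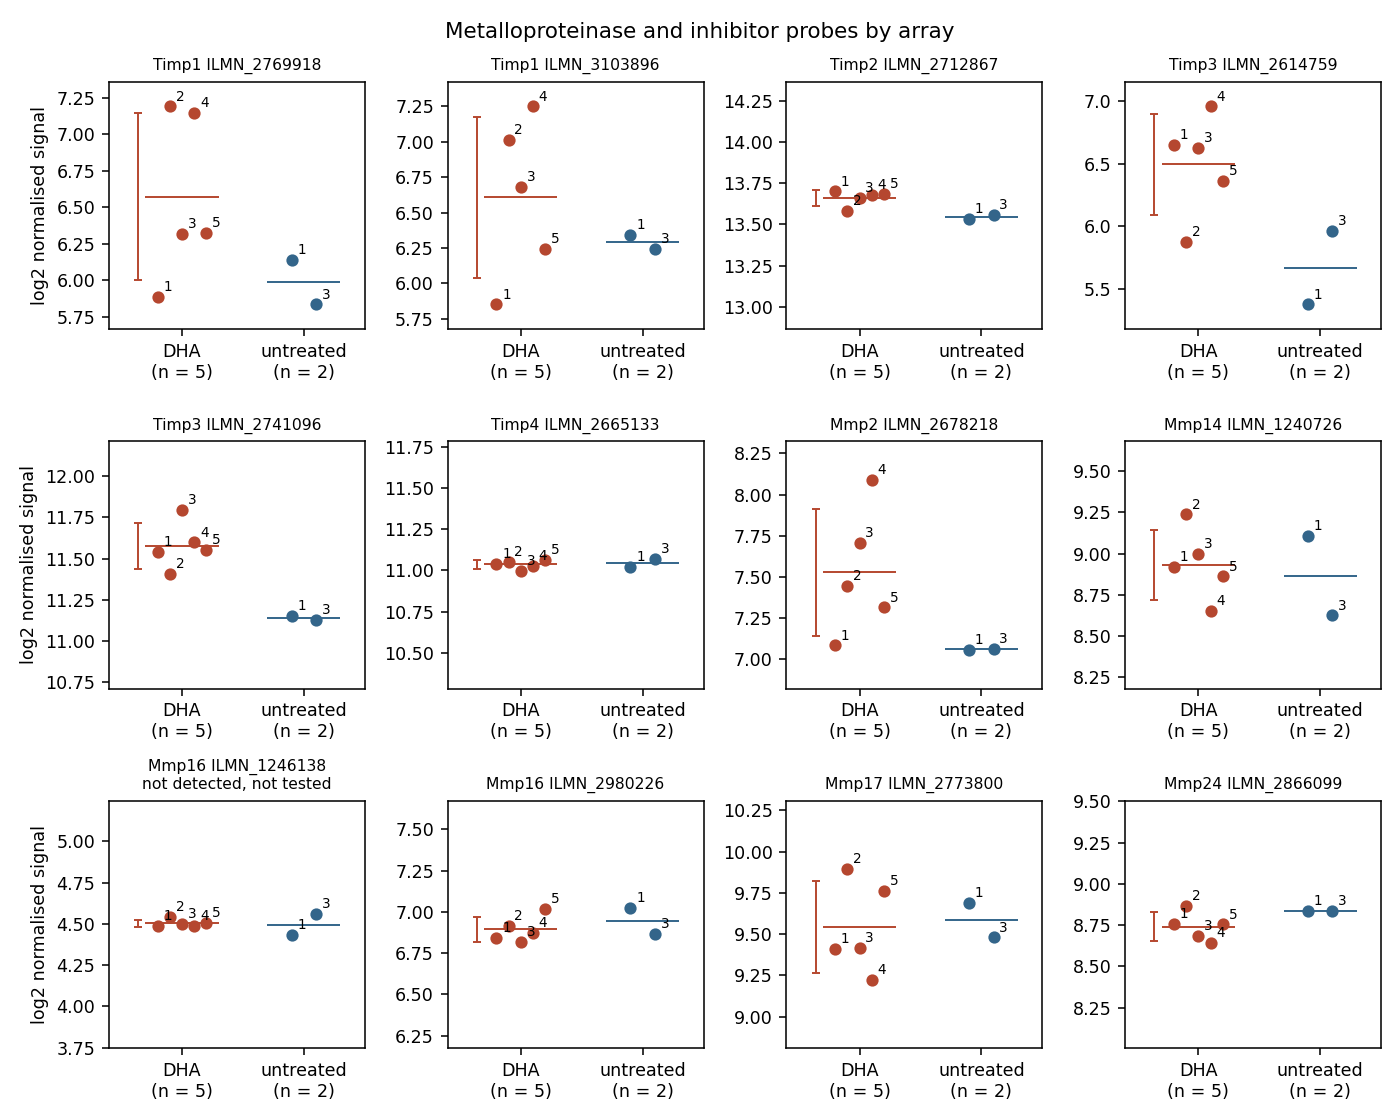
Log2 normalised signal (vertical axis, its own range in each panel) of the 12 probes in the 5 DHA arrays (red) and the 2 untreated arrays (blue), with replicate numbers beside the points. Horizontal lines are group means and the bar left of the DHA points is 1 SD to each side; the DHA points of Timp3 ILMN_2741096 lie between 11.41 and 11.79, above the untreated points at 11.15 and 11.13.

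Timp3 was represented by 2 probes. On the brighter one, ILMN_2741096, the log2 signal was 11.54, 11.41, 11.79, 11.60 and 11.55 in DHA replicates 1 to 5, against 11.15 and 11.13 in untreated replicates 1 and 3. All 5 DHA arrays lay above both untreated arrays, and the gap between the lowest DHA and the highest untreated array, 0.26 log2, was smaller than the range within the DHA group, 0.385. The difference was 0.44 (SE 0.11, 95% interval 0.17 to 0.70, limma adjusted p 0.313). Before normalisation the same probe read 3431, 2833, 3593, 3411 and 3038 in the DHA arrays and 2245 and 2264 in the untreated arrays, so the order of the groups was already present in the scanner signal. The DHA arrays were brighter as a whole, however. Both Timp1 probes also showed this order before normalisation but overlapped after it. With an intensity trend and robust variances in limma, the Timp3 adjusted p was 0.0457, and it was the only member probe to pass under any alternative. In that setting 52 of all 15284 tested probes passed. The lowest Timp3 adjusted p in limma under the other alternatives was 0.148.

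The dimmer Timp3 probe, ILMN_2614759, gave 6.65, 5.87, 6.62, 6.96 and 6.36 in DHA replicates 1 to 5, against 5.37 and 5.96 in untreated replicates 1 and 3. Here DHA replicate 2 lay below untreated replicate 3, so the groups overlapped by this array. DHA replicate 2 was also the lowest DHA array on the brighter probe. The difference on the dimmer probe was 0.83 (SE 0.28, 95% interval 0.17 to 1.48, limma adjusted p 0.406), in the same direction and with a wider interval. Timp3 kept a positive difference under each of the 18 alternatives run on its brighter probe, but many of these could not have turned the sign. The detection filters and the intensity trend left the difference at 0.4375. Since every DHA array lay above both untreated arrays, leaving out arrays or adding a replicate block could scarcely turn it either.

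Timp2, the inhibitor that also bridges Mmp14 and the Mmp2 proenzyme, gave 13.70, 13.58, 13.66, 13.68 and 13.68 in DHA replicates 1 to 5, against 13.53 and 13.56 in untreated replicates 1 and 3. The groups did not overlap, but the gap between them was only 0.02 log2. The difference of 0.12 (SE 0.08, 95% interval -0.08 to 0.31, limma adjusted p 0.661) corresponds to 8.41%. It was 0.001 with arrays scaled to a common median in place of quantile normalisation, where the groups overlapped. The Timp2 values were among the least variable of the array, as 97.2% of tested probes had a larger SD over the DHA arrays.

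Timp1, an inducible inhibitor found in reactive glia and connective tissue, was the most variable member. Its brighter probe, ILMN_3103896, gave 5.85, 7.01, 6.68, 7.25 and 6.24 in DHA replicates 1 to 5, against 6.34 and 6.24 in untreated replicates 1 and 3. The other probe, ILMN_2769918, gave 5.88, 7.19, 6.32, 7.14 and 6.32 in the DHA arrays, against 6.14 and 5.83 in the untreated arrays. Both probes put DHA replicates 2 and 4 highest and DHA replicate 1 lowest among the DHA arrays, and both overlapped between diets. The differences were 0.31 (SE 0.35, 95% interval -0.49 to 1.12, limma adjusted p 0.783) and 0.58 (SE 0.36, 95% interval -0.24 to 1.41, limma adjusted p 0.604). Their SDs over the DHA arrays were 0.57 log2 on each probe, a spread exceeded by 1.83% and 1.78% of tested probes. Without DHA replicate 4 the difference on the brighter probe was 0.15, and without DHA replicate 1 it was 0.503.

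Timp4, an inhibitor expressed in brain and heart, showed the smallest difference. It gave 11.04, 11.05, 10.997, 11.03 and 11.06 in DHA replicates 1 to 5, against 11.02 and 11.07 in untreated replicates 1 and 3. The DHA arrays all lay within 0.07 log2 of each other, and 99.6% of tested probes had a larger SD over them. The difference was -0.009 (SE 0.08, limma adjusted p 0.976), and its 95% interval of -0.19 to 0.18 leaves room for changes of that size in either direction.

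**Figure D2:**
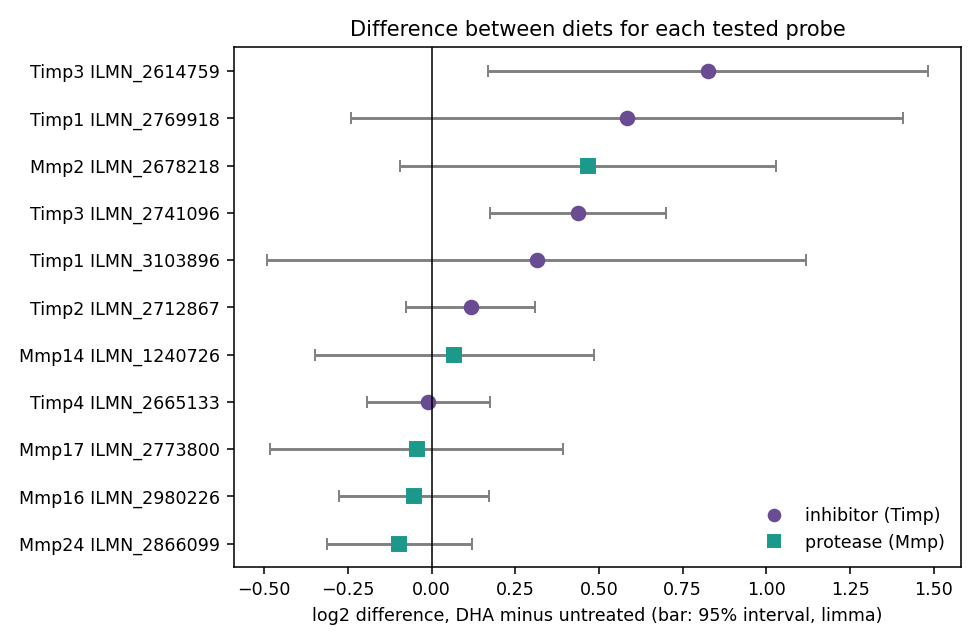
Log2 difference, DHA minus untreated (horizontal axis), for each of the 11 tested probes, with circles for inhibitors and squares for proteases and bars for the 95% interval of the limma fit. The intervals of both Timp3 probes, 0.17 to 0.70 and 0.17 to 1.48, lie above 0, and those of the other 9 probes span it.

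Mmp2, the secreted gelatinase that cuts basement membrane collagen, gave 7.09, 7.45, 7.71, 8.09 and 7.32 in DHA replicates 1 to 5, against 7.06 and 7.06 in untreated replicates 1 and 3. The untreated arrays were alike, while the DHA arrays spread over 1.002 log2, with DHA replicate 1 at the untreated level and DHA replicate 4 highest. The difference was 0.47 (SE 0.24, 95% interval -0.09 to 1.03, limma adjusted p 0.541). The groups did not overlap, by 0.02 log2, and 7.01% of tested probes had a larger SD over the DHA arrays. On the authors' normalised values, in which background had not been subtracted, the Mmp2 difference was 0.26, and without DHA replicate 4 it was 0.33.

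Mmp14, the membrane-bound activator of the Mmp2 proenzyme, gave 8.92, 9.24, 8.996, 8.65 and 8.86 in DHA replicates 1 to 5, against 9.10 and 8.62 in untreated replicates 1 and 3. The untreated arrays lay 0.48 log2 apart, and 4 of the 5 DHA arrays fell between them. The difference was 0.07 (SE 0.18, 95% interval -0.35 to 0.49, limma adjusted p 0.915). Its sign rests on single arrays, since it was -0.17 without untreated replicate 3, 0.31 without untreated replicate 1 and -0.0067 without DHA replicate 2.

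Mmp17, the protease with a lipid anchor, gave 9.41, 9.89, 9.42, 9.22 and 9.76 in DHA replicates 1 to 5, against 9.69 and 9.48 in untreated replicates 1 and 3. The groups overlapped, with the untreated arrays inside the DHA range. The difference was -0.04 (SE 0.19, 95% interval -0.48 to 0.39, limma adjusted p 0.952). Mmp14, Mmp17 and Mmp24 were each highest in DHA replicate 2 and lowest in DHA replicate 4 among the DHA arrays, whereas Mmp2 was highest in DHA replicate 4.

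Mmp24, a membrane-bound protease enriched in the nervous system, gave 8.76, 8.87, 8.68, 8.64 and 8.76 in DHA replicates 1 to 5, against 8.84 and 8.84 in untreated replicates 1 and 3. Of the DHA arrays, replicate 2 alone lay above the untreated arrays. The difference was -0.10 (SE 0.09, 95% interval -0.31 to 0.12, limma adjusted p 0.751), and it was negative under each of the 18 alternatives. The detection filters and the intensity trend could not turn the sign, as they left this difference unchanged. Mmp16, a further membrane-bound protease, gave 6.84, 6.92, 6.82, 6.87 and 7.02 in the DHA arrays, against 7.03 and 6.86 in the untreated arrays. These values overlapped, and the difference was -0.05 (SE 0.10, 95% interval -0.28 to 0.17, limma adjusted p 0.874). The other Mmp16 probe, ILMN_1246138, was detected in 0 of 5 DHA and 0 of 2 untreated arrays, with detection p-values of 0.455 to 0.794, and was not tested.

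By role, 3 of the 4 inhibitors and 2 of the 5 tested proteases had a positive difference, with medians of 0.22 and -0.04 log2. Whether the inhibitors and the proteases differ in their change was not tested. Values of different probes depend on each probe's own binding, so no level of an inhibitor was set against that of a protease.

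Markers of meninges and fibroblasts had positive differences beside those of Timp3, Timp2 and Mmp2, but 0 of 17 passed the test, with a lowest limma adjusted p of 0.113. Of the 20 listed markers 17 were tested, all 17 had a positive difference with a median of 1.41 log2, and the groups did not overlap for 13, all higher with DHA, against 7.89% of all tested probes. Their mean log2 signal was 8.53, 9.22, 9.30, 9.15 and 9.04 in DHA replicates 1 to 5 and 8.11 and 7.18 in untreated replicates 1 and 3. Probes of the fibrillar collagen genes Col1a2 and Col3a1 and of the transporter Slc6a20a were detected on no array. DHA replicate 1 was the lowest DHA array in the marker mean and also in Mmp2 and on both Timp1 probes, but DHA replicate 2 was the lowest on both Timp3 probes and in Timp2. The untreated arrays differed by 0.92 log2 in the marker mean and by at most 0.03 log2 in Mmp2, Timp2 and the brighter Timp3 probe. On the dimmer Timp3 probe they differed by 0.59 log2, with untreated replicate 3 the higher, whereas untreated replicate 1 was the higher in the marker mean. Markers of endothelium and pericytes had a median difference of 0.29, with a positive difference in 11 of 13 tested genes of which 0 passed (lowest limma adjusted p 0.0968). The groups did not overlap for 5, all higher with DHA, against 7.89% of all tested probes. Differences ran from -0.30 to 1.48. Myh11 (1.48), Acta2 (1.34) and Tagln (1.01, detected in 0 of 2 untreated arrays) were highest, while Ly6c1 (0.05) and Flt1 (-0.01) lay near 0. The list mean was 8.20 to 8.56 in the DHA arrays, against 8.17 and 7.62 in the untreated arrays. Astrocyte markers had a median of 0.16, with a positive difference in 8 of 10 of which 0 passed. The groups did not overlap for 4 of the 10, all higher with DHA, against the same 7.89%. Their mean was 10.55 to 10.72 in the DHA arrays, against 10.48 and 10.53 in the untreated arrays. The part of these cell types in the values of Timp3, Timp2 and Mmp2 was not tested.

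**Figure D3:**
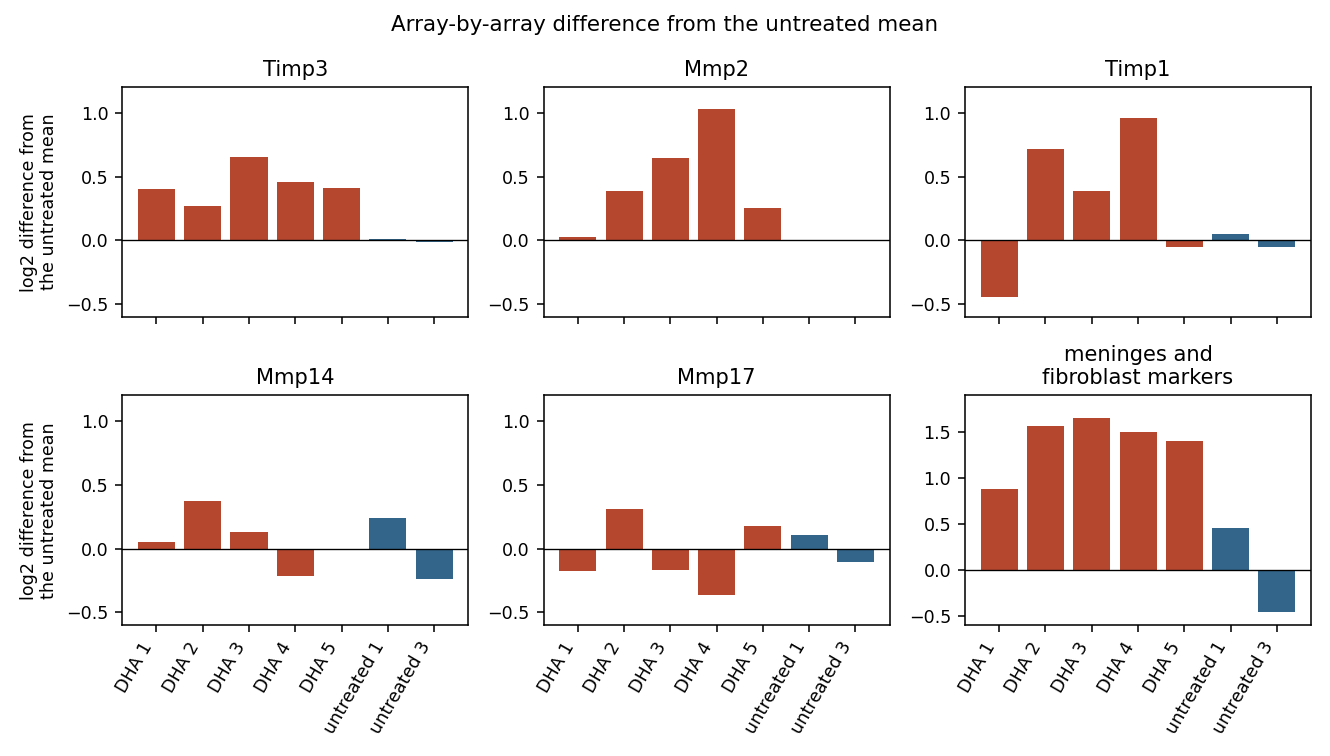
Log2 difference of each array from the mean of the untreated arrays (vertical axis) for 5 member genes, brightest probe each, and for the mean of 17 meninges and fibroblast markers, with DHA arrays in red and untreated arrays in blue. Timp3 is above 0 in all 5 DHA arrays, from 0.27 to 0.65, Timp1 runs from -0.44 to 0.96, and the marker panel has a taller axis.

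Microglia, neuron and oligodendrocyte markers had medians of -0.02, -0.03 and 0.16. On its brighter probe Timp3 was highest in DHA replicate 3, the array with the highest pituitary mean and the lowest liver mean. DHA replicate 3 also had the highest mean of meninges and fibroblast markers (9.30) and of endothelium and pericyte markers (8.56). The same held for astrocyte (10.72) and oligodendrocyte markers (10.96). On its dimmer probe Timp3 was highest in DHA replicate 4, whose liver mean was the second highest and which was highest in none of the latter lists. Without DHA replicates 1 and 4, the arrays with the highest liver mean, the difference on the brighter probe was 0.44, and without DHA replicates 1 and 3, with the highest pituitary mean, it was 0.38 (limma adjusted p 0.455 and 0.434).

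Related genes of the metalloproteinase system were read on the same arrays, from lists of proteases, inhibitors, activators and substrates. None of the named genes below passed the test, and their limma adjusted p-values lay between 0.14 and 0.983. The list of other inhibitors and clearance proteins had 6 of 7 tested genes with a positive difference and a median of 0.33 log2, and 0 of 7 passed. That median was 0.2035 without untreated replicate 3 and 0.1594 on the authors' normalised values. Pcolce, which encodes an enhancer of procollagen processing, gave 6.39, 7.43, 7.44, 6.93 and 7.19 in DHA replicates 1 to 5, against 5.82 and 5.32 in the untreated arrays, with no overlap and a difference of 1.51 (SE 0.29, adjusted p 0.184). Reck, a membrane-anchored inhibitor of metalloproteinases, differed by 0.34 (SE 0.14, adjusted p 0.465), and its DHA replicate 1, at 6.94, lay just under untreated replicate 3. Pcolce2, a relative of Pcolce, differed by 0.47 (SE 0.27), and the testican Spock2 by -0.0093 (SE 0.11). Pcolce had an adjusted p of 0.0348 with an intensity trend and robust variances, a setting in which 52 of 15284 tested probes passed. Its difference was 0.58 on the authors' normalised values.

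Matrix proteins that metalloproteinases cut had 10 of 11 tested genes with a positive difference and a median of 0.33, and 0 of 11 passed. The groups did not overlap for 4 of them, all higher with DHA, against 7.89% of all tested probes. The basement membrane proteoglycan perlecan, Hspg2, gave 7.32, 7.45, 7.70, 7.38 and 7.52 in the DHA arrays, against 6.77 and 6.80 in the untreated arrays (difference 0.69, SE 0.12, limma adjusted p 0.14). The basement membrane linker nidogen, Nid1, differed by 1.09 (SE 0.30), with signal above background on only 1 of the 2 untreated arrays, and the proteoglycan decorin, Dcn, which is also on the meninges list, by 1.31 (SE 0.25). Nid1 differed by 0.6049 without untreated replicate 3, by 1.5929 without untreated replicate 1 and by 0.379 on the authors' normalised values. The basement membrane collagen Col4a2, in contrast, had a difference of -0.21 (SE 0.11). The list's median was 0.09 without untreated replicate 3 and 0.12 on the authors' normalised values.

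Of 17 other matrix metalloproteinases, 6 were tested and 9 had probes that were detected on no array, among them the stromelysin Mmp3, the macrophage elastase Mmp12 and the collagenase Mmp13. The 6 had a median difference of 0.08 and 0 passed. Mmp28, detected in 5 of 5 DHA and 1 of 2 untreated arrays, differed by 0.41 (SE 0.16, limma adjusted p 0.455). The Mmp28 difference was 0.1834 without untreated replicate 1, 0.6554 without untreated replicate 3 and 0.1057 on the authors' normalised values. The secreted gelatinase Mmp9 gave 6.23, 6.14, 5.87, 6.34 and 6.19 in the DHA arrays, against 5.96 and 6.11 in the untreated arrays, which overlapped (difference 0.12, SE 0.13). Mmp11 differed by 0.07 (SE 0.12), Mmp1a by -0.11 (SE 0.10) and Mmp19 by -0.11 (SE 0.17).

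The ADAM proteases, membrane-bound sheddases and adhesion proteins, had 3 of 8 tested genes with a positive difference and a median of -0.03, and 0 of 8 passed. Adam9, a sheddase, gave 7.66, 7.32, 7.63, 7.42 and 7.86 in DHA replicates 1 to 5, against 6.91 and 7.15 in the untreated arrays, with no overlap (difference 0.55, SE 0.16, limma adjusted p 0.332). Adam22, a neuronal adhesion protein without protease activity, was lower in every DHA array (difference -0.36, SE 0.15, adjusted p 0.473), as was Adam15 (-0.16, SE 0.09). Adam17, the sheddase of tumour necrosis factor that Timp3 inhibits, differed by 0.11 (SE 0.24), and Adam23 by 0.03 (SE 0.11). Adam8 was detected in 2 of 5 DHA and 0 of 2 untreated arrays and is given no fold.

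The ADAMTS proteases, secreted enzymes that cut proteoglycans, had 4 of 8 tested genes with a positive difference and a median of 0.04, with differences between -0.15 and 0.23, and 0 of 8 passed. Adamts1 was detected in 3 of 5 DHA and 0 of 2 untreated arrays and is given no fold. Adamts5, an aggrecanase, differed by 0.18 (SE 0.17) and Adamts18 by 0.16 (SE 0.17). Adamts19, Adamts16 and Adamts13 differed by -0.15, -0.14 and -0.12 (SE 0.22, 0.18 and 0.24).

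Among convertases, plasminogen system genes and inducers, 4 of 7 tested genes had a positive difference, the median was 0.14 and 0 passed. That median turned to -0.0758 when a detection p under 0.01 was required on all 7 arrays and to -0.0377 without DHA replicates 1 and 4, and it was 0.0779 without untreated replicate 3 and 0.036 on the authors' normalised values. Basigin, Bsg, an inducer of metalloproteinases, was lower in all 5 DHA arrays than in both untreated arrays, at 5.71, 5.94, 5.95, 5.96 and 6.01 against 6.19 and 6.23 (difference -0.29, SE 0.10, limma adjusted p 0.425). Furin, the convertase that removes the propeptide of membrane-bound metalloproteinases, differed by 0.14 (SE 0.10), and the hyaluronan receptor Cd44 by 0.28 (SE 0.18). The urokinase receptor Plaur was detected in 5 of 5 DHA and 0 of 2 untreated arrays. The ratio of its group means, DHA to untreated, was at least 1.05, but the groups overlapped. The interval of its log2 difference in the limma fit, -0.09 to 0.40, spanned 0 (limma adjusted p 0.635). The convertase Pcsk7 differed by -0.15 (SE 0.10) and Serpini1, a neuronal inhibitor of plasminogen activation, by -0.08 (SE 0.12).

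**Figure D4:**
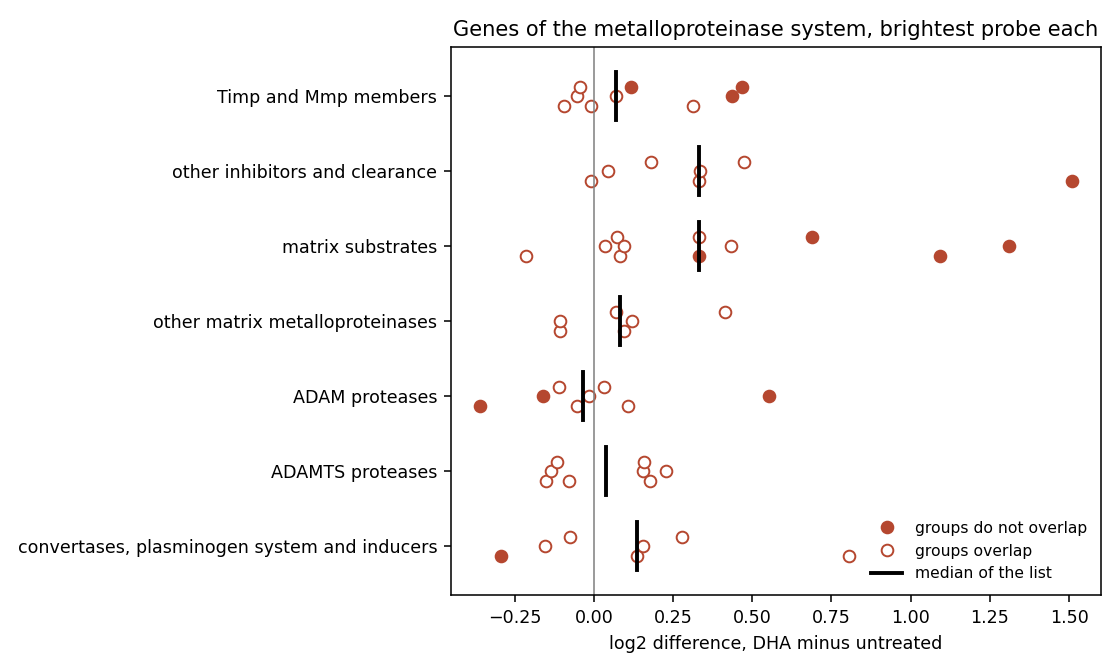
Log2 difference, DHA minus untreated (horizontal axis), of each tested gene in the 9 member genes and in 6 lists of related genes, with black bars for medians and filled points where the groups do not overlap. The medians lie at 0.33 for other inhibitors and for matrix substrates and between -0.03 and 0.14 for the members and the other lists.

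**Figure D5:**
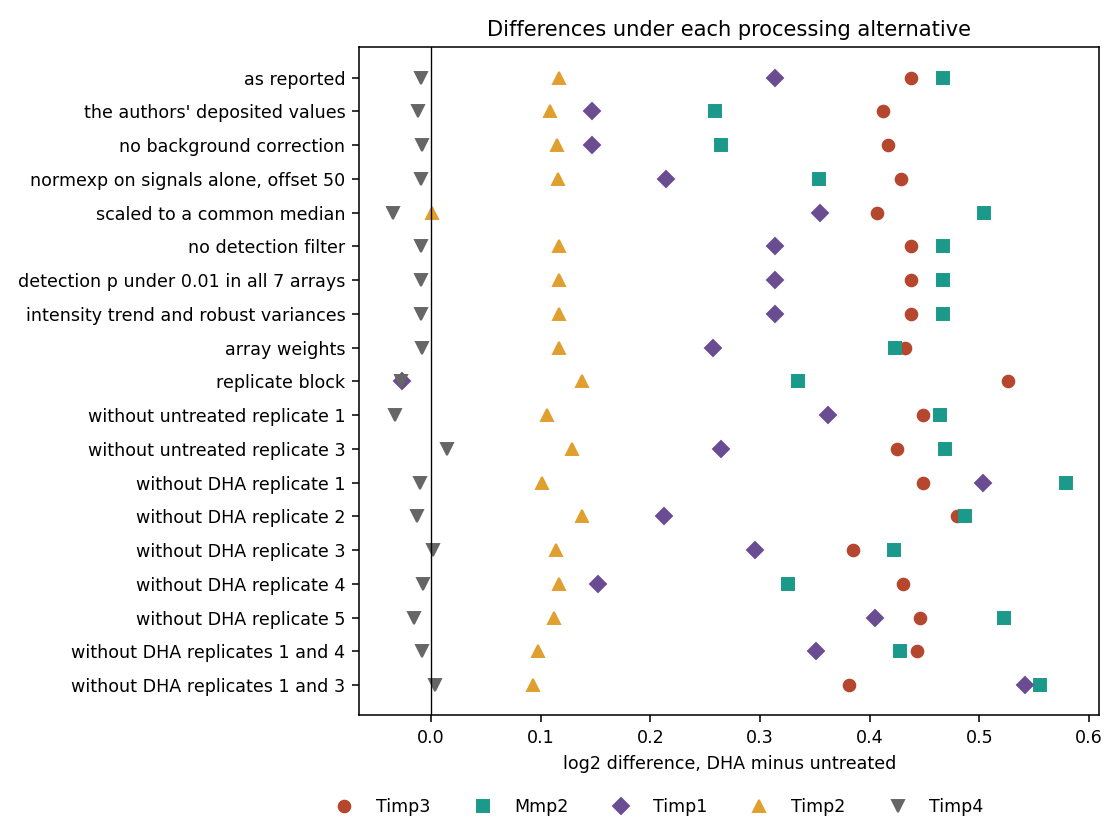
Log2 difference, DHA minus untreated (horizontal axis), of the brightest probe of Timp3, Mmp2, Timp1, Timp2 and Timp4 under the reported setting and each alternative (rows). Timp3 stays between 0.38 and 0.53, Mmp2 between 0.26 and 0.58 and Timp1 between -0.027 and 0.54.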

How the data were processed

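Illumina bead arrays measured RNA from the hypothalamus of 7 Bgn knockout mice. Per the file headers, the authors' deposited table of 25697 probes gives, per array, a linear signal intensity without normalization and a detection p-value. Another 2 per-sample columns of that table match no sample and were not used. The authors' normalized intensity table served as an alternative. Among tools, lumi 2.10.0 and R 2.15.0 are listed, per the submitters' processing notes.

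Values were computed with R 4.3.3 and limma 3.58.1: normexp background correction from the detection p-values (offset 16), quantile normalization and log2. These steps equalise the arrays' signal distributions, and the offset shrinks differences of dim probes. Testing was limited to probes detected (p under 0.05) on 2 or more arrays. Symbols came from the platform annotation (23978 probes named, 1719 not), updated on GRCm38.p6. Each probe was fitted with lmFit and eBayes for the diet difference, two-sided, adjusted over all tested probes, with a threshold of 0.05. The fit was tested on simulated data. The brightest probe stands for a gene. Where no array of a group detected a probe, the fold is a lower bound: the other group's mean against the larger, on each array, of the probe's signal and the dimmest signal detected. This bounds the ratio of the group means and takes no account of the spread between arrays.

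The text names all members, Bgn and, per related list, up to 3 genes a direction with the smallest p. The members and lists were chosen with earlier results of these data known. Alternatives were the deposited values, other background corrections, median scaling, other detection filters, array weights, robust variances with an intensity trend, a replicate block and each array left out. Leaving out DHA replicates 1 and 4, or 1 and 3, was added after the data were seen.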

Additional observations from a re-analysis of the deposited data

Results flagged for a closer look

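Of the 11 tested member probes and Bgn, 1 had an array far from the others of the DHA group, that of Bgn. DHA replicate 4, at a log2 signal of 8.03, lay below the other DHA arrays, at 8.23 to 8.31, and its gap to the nearest took 0.7265 of the group's range, above Dixon's critical value of 0.71 for 5 samples. Chance gives such a value in about 1 of 20 groups. No member probe exceeded it. The nearest was Timp2, where DHA replicate 2 was lowest with a ratio of 0.695.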

How the results depend on the processing

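Over all tested probes, 0 passed as reported, 12 on the authors' deposited values and also without background correction, 1 with normexp on the signals alone, 52 with an intensity trend and robust variances, and 3 without DHA replicates 1 and 4. Leaving out 1 array gave 0 to 3, with 3 without untreated replicate 3. Of member probes, 1 passed with the trend, that of Timp3 (0.4375, adjusted p 0.0457), whose adjusted p lay between 0.148 and 0.667 under the other alternatives on that probe. The number of members without overlap was 3 to 5 when 1 array was left out, with 5 without untreated replicate 1 (Timp4 lower and Mmp14 higher in addition), and 2 with median scaling. Fewer arrays raise this count for all probes too: 38% of tested probes did not overlap without untreated replicate 1 and 20.5% to 38.4% over these settings, against 17% as reported. The members' median difference lay between -0.0067 and 0.1163 with 1 array left out.

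With the replicate number as a block, 0 probes passed, Timp3 differed by 0.5266 (limma adjusted p 0.623) and the members' median was -0.0269. Only numbers 1 and 3 occur in both groups, so the diet difference under the block rests on the arrays of these numbers. DHA replicates 2, 4 and 5 add nothing to it. Deviations of arrays of the same number were correlated at 0.0034 and 0.0339 for numbers 1 and 3. With 2 untreated arrays, the deviation of each mirrors that of the other, so these values cannot show what arrays of the same number share. The labels give no shared litter or day. Under the block, and so on the arrays of numbers 1 and 3 alone, the sign turned for Timp1 (-0.0269), Adam23 (-0.0686), Spock2 (0.0099), Adam8 (0.0356), Adamts19 (0.051) and Adamts13 (0.0676). With 1 array left out, signs turned within the ranges of Timp4 (-0.0325 to 0.0142), Mmp14 (-0.1685 to 0.3069), Mmp16 (-0.1322 to 0.0286), Mmp17 (-0.1506 to 0.0607), Mmp11 (-0.0448 to 0.1844), Mmp19 (-0.3388 to 0.12), Adam23 (-0.0016 to 0.0802), Adam8 (-0.2437 to 0.0215), Adamts5 (-0.0502 to 0.4072), Adamts19 (-0.4443 to 0.1348), Adamts13 (-0.4437 to 0.2091), Spock2 (-0.0396 to 0.0468) and Serpini1 (-0.2283 to 0.0779). They also turned with median scaling for Adam23 (-0.0303), without DHA replicates 1 and 4 for Mmp17 (0.1071), and without DHA replicates 1 and 3 for Mmp17 (0.0419), Timp4 (0.0032), Adam17 (-0.054) and Adamts16 (0.0146). Medians of related lists near 0 also changed sign over the alternatives, between -0.0609 and 0.0256 for ADAM proteases, -0.0786 and 0.1244 for ADAMTS proteases, -0.0015 and 0.1162 for other matrix metalloproteinases, and -0.0758 and 0.1681 for convertases, plasminogen system genes and inducers. Apart from the arrays used, the cause of these turns was not tested, and none of these differences passed the test with either sign.

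With 1 untreated array left, the fit assumes that it varies like the DHA arrays. Dim probes depend on the background step: on the authors' deposited values the dimmer Timp3 probe differed by 0.2866 and Timp1 by 0.1467, against 0.8259 and 0.3135 as reported. On the same values Adam9 differed by 0.2973, Adam22 by -0.1338, Reck by 0.1728, Pcolce2 by 0.2587, Bsg by -0.0927 and Hspg2 by 0.3521, each smaller than reported by over 1.5 times. All alternatives listed were run.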

Other observations

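Of the 4 inhibitor genes, 3 lie inside a synapsin gene in the RefSeq annotation, Timp1 in Syn1, Timp4 in Syn2 and Timp3 in Syn3. Synapsins are proteins of synaptic vesicles. These genes were looked up after the values of the members were seen. The Syn3 probe was detected on no array. Syn1 differed by 0.15 (SE 0.10, limma adjusted p 0.616) and 0.13 (SE 0.09, limma adjusted p 0.644) on its 2 probes. On each, the 5 DHA arrays lay above the untreated pair, as for 7.89% of all tested probes. Syn2 gave 12.12, 12.09, 12.15, 11.78 and 12.12 in DHA replicates 1 to 5, against 12.19 in both untreated arrays, and differed by -0.14 (SE 0.12, limma adjusted p 0.715). Its 5 DHA arrays lay below the untreated pair, as for 9.06% of all tested probes. Timp4, inside Syn2, differed by -0.009.

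Plasminogen, Plg, the liver-made precursor of an enzyme that activates metalloproteinases, followed the arrays with liver transcripts. It gave 6.71, 5.82, 4.52, 6.20 and 4.598 in DHA replicates 1 to 5, against 4.70 and 4.83 in the untreated arrays. Its probe was detected in 3 of 5 DHA and 0 of 2 untreated arrays. The ratio of the group means, DHA to untreated, was at least 1.28, a bound that ignores the spread between arrays. DHA replicates 3 and 5 lay below both untreated arrays. The interval of the log2 difference in the limma fit, -0.56 to 2.17, spanned 0 (limma adjusted p 0.667). The mean of the liver genes was 9.49, 8.01, 5.93, 8.83 and 6.93 in DHA replicates 1 to 5 and 6.97 and 6.43 in the untreated arrays. Plg was named after its values were seen.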
